A study of Arabidopsis thaliana with 15 samples.

Results

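Late-named microRNAs (miRNAs) of Arabidopsis thaliana, here those whose ath-miR number is 1000 or higher, were read from a small RNA count table of leaves. They were found by their names alone, and they made up 151 of the 427 miRNA rows in that table. The 151 rows carried 106 different numbers and came from 132 hairpins, 17 of which had a row for each arm. One genotype was the wild-type accession Col-0. The other was prp4k3, written in the series' design text as the line amiR-PRP4K3. By that name it carries an artificial miRNA against PRP4K genes, a family of protein kinases named for pre-mRNA processing. Both groups were leaves of 3-week-old plants, with 3 small RNA libraries and 3 RNA-seq libraries per genotype. The promoter and target specificity of the artificial miRNA, the number of independent lines and whether plants were pooled are not given in the labels. A p-value here therefore reflects the spread among libraries alone, which may be technical. RNA-seq libraries of a further genotype, se-2, were not analysed here.

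Plant miRNAs are cut from hairpin transcripts in the nucleus by the Dicer enzyme DCL1 together with HYL1 and Serrate, are methylated by HEN1, and are loaded on Argonaute proteins such as AGO1, where they direct the cleavage or silencing of matching mRNAs. miRNA numbers are given in the order of registration, so a high number marks a late discovery, in most cases by deep sequencing. Late-named miRNAs are as a rule weakly expressed and restricted to few related species, and for most of them no target or function has been established. An exception is miR2111, which accumulates in shoots under phosphate shortage and directs the cleavage of an F-box mRNA.

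Total counts of the Col-0 small RNA libraries were 1156591, 792586 and 1083033, and those of the prp4k3 libraries were 346060, 636914 and 305617. The third prp4k3 library was therefore the shallowest, and 3 counts, the smallest number treated as a limit, corresponded to between 2.65 and 8.62 CPM, the count scaled by library total and trimmed mean factor, as in all CPM levels given for single miRNAs and genes. The prp4k3 replicate 2 library stood apart from the other prp4k3 libraries. Its root mean square log2 difference to them was 0.701 and 0.726 over all 215 rows tested, against 0.401 between prp4k3 replicates 1 and 3 and 0.343 to 0.438 among the Col-0 libraries. Values without it are given where it is far from the other prp4k3 libraries. In RNA-seq, the PRP4K family kinase PRP4KA fell by 0.68 ± 0.13 (SE) on the log2 scale (edgeR's quasi-likelihood test, adjusted p = 0.00116). But its log2 difference was 0.16 when libraries were scaled by their total counts. PRP4KB had a log2 difference of -0.41 (edgeR, adjusted p = 0.0646), but was at 0.43 with total-count scaling (edgeR, adjusted p = 0.0413). PRP4KC had 0 counts in all 6 libraries. Leaf marker transcripts were abundant in both genotypes, with a summed level of 25772 to 30427 CPM over the 3 leaf markers in Col-0 and 10232 to 10349 CPM in prp4k3. The size of this gap depends on scaling. The log2 differences of RBCS1A, RCA and LHCB2.1 were -1.59, -0.99 and -1.80, but -0.75, -0.15 and -0.96 with total-count scaling. RCA was then not called (edgeR, adjusted p = 0.284). The 2 root markers summed to 47.4 to 47.9 CPM in Col-0 and 56.5 to 67.5 CPM in prp4k3, and they went opposite ways: PYK10, which makes up most of the sum, rose by 0.70 on the log2 scale (edgeR, adjusted p = 0.00062) and SHR fell by 0.61 (edgeR, adjusted p = 0.00312), but was at 0.24 with total-count scaling. The 2 flower markers, AP3 and AG, had 4 to 9 summed counts per Col-0 library and 12 to 56 per prp4k3 library, and AP3 was at 0 in 2 Col-0 libraries. In CPM they summed to 0.295 to 0.611 in Col-0 and 0.558 to 2.44 in prp4k3, with overlap. AG by itself also overlapped, and AP3 did not. The part of these marker differences in the miRNA results was not tested, and in such bulk samples fewer cells of a type cannot be told apart from less RNA per cell.

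Most late-named miRNAs were rare or not seen. Over the 6 libraries together, 119 of the 151 rows (78.8%) had a count and 32 rows (21.2%) had none. A total of 1 to 9 reads was found for 37 rows, 10 to 99 for 51, at least 100 but under 1000 for 29, and 1000 or more for 2, miR5026 and miR8175. The median row had 11 reads summed over the libraries, against 24 for miRNAs numbered from 400 to below 900 and 2832.5 for those numbered below 400. Of the rows numbered from 400 to below 900, 105 of 130 (80.8%) had a count, and of those numbered below 400, 143 of 146 (97.9%) did. Rows are not always separate miRNAs: 20 late-named rows with 10 or more reads formed 6 sets with identical counts in every library, the largest being miR8167a to miR8167f. These sets are counted as rows below, but each holds 1 set of reads.

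More late-named rows were seen in the deeper libraries. Their number was 108, 100 and 100 in Col-0 and 85, 93 and 82 in prp4k3, a mean of 103 ± 4.62 (SD, n = 3) against 86.7 ± 5.69 (SD, n = 3) with no overlap between the genotypes (exact two-sided permutation test, p = 0.1, the smallest this design allows). When every library was reduced in expectation to 305617 counts, the size of the smallest, the rows seen came to 81.7 ± 1.08 (SD, n = 3) in Col-0 and 81.3 ± 1.71 (SD, n = 3) in prp4k3, and the genotypes overlapped (exact two-sided permutation test, p = 0.8). At equal depth a difference in the number of late-named miRNAs was therefore not detectable.

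**Figure D1:**
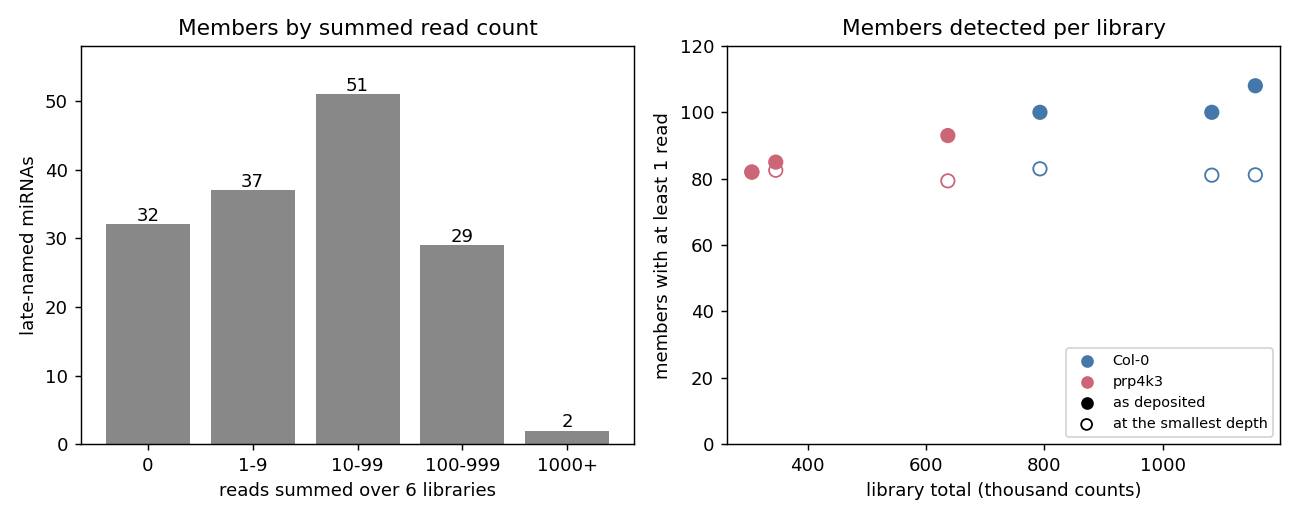
The left part shows how many of the 151 late-named rows fall in each class of reads summed over the 6 libraries, and the right part the number of rows with a read in each library (filled) and the number expected after reduction to 305617 counts (open) against the library's total counts, coloured by genotype. The filled points of prp4k3, 82 to 93 rows, lie below the 100 to 108 of Col-0, and the open points overlap.

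Late-named miRNAs held a small share of all miRNA counts. The share was 0.867%, 0.908% and 0.789% in Col-0 and 1.13%, 0.876% and 0.961% in prp4k3. The prp4k3 replicate 2 library lay within the range of Col-0 and the other prp4k3 libraries above it, so the genotypes overlapped. The means were 0.855% ± 0.0606 (SD, n = 3) and 0.990% ± 0.131 (SD, n = 3), a difference of 0.136 percentage points that did not pass the test (exact two-sided permutation test, p = 0.2, with 0.1 the smallest possible). The difference was 0.193 percentage points without prp4k3 replicate 2 and 0.0638 without prp4k3 replicate 1. Without miR5026 and miR8175, the other late-named rows held 0.201% ± 0.0173 (SD, n = 3) of the counts in Col-0 and 0.268% ± 0.0321 (SD, n = 3) in prp4k3, with no overlap (exact two-sided permutation test, p = 0.1, the smallest possible), and the prp4k3 mean was 0.283% without replicate 2. Because the table holds named miRNAs only, shares and CPM are relative to the other miRNAs, and they say nothing of how much miRNA a leaf held in all.

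miR5026 and miR8175 together made up most late-named reads. miR5026 had 5319, 4782 and 4688 CPM in Col-0 and 3590, 5339 and 3327 CPM in prp4k3. Its prp4k3 replicate 2 value was as high as the highest Col-0 value, while prp4k3 replicates 1 and 3 were below all Col-0 libraries. The log2 difference was -0.27 ± 0.22 (SE, 95% interval -0.76 to 0.22) and was not called (edgeR, adjusted p = 0.349), and it was -0.49 without prp4k3 replicate 2 (edgeR, adjusted p = 0.00446) and 0.13 and 0.12 without prp4k3 replicate 1 or 3. Across the 16 alternative settings its adjusted p ran from 0.00446 to 0.864. miR8175 had 1546, 2119 and 1542 CPM in Col-0 and 3720, 2504 and 2775 CPM in prp4k3. All 3 prp4k3 libraries lay above all 3 Col-0 libraries. miR8175 rose by 0.79 ± 0.22 (SE, log2; edgeR, adjusted p = 0.0184), from 1735 ± 332 to 3000 ± 638 CPM (SD, n = 3 each), and the call was lost without Col-0 replicate 3 (edgeR, adjusted p = 0.0671) and under total-count scaling. As a share of late-named reads, miR5026 went from 56.6% ± 3.87 (SD, n = 3) in Col-0 to 41.7% ± 7.09 (SD, n = 3) in prp4k3 and miR8175 from 19.8% ± 3.01 to 31.2% ± 7.19 (SD, n = 3), each without overlap between genotypes (exact two-sided permutation test, p = 0.1, the smallest possible). For miR8175 the genotypes all but touched, at 23.3% in prp4k3 replicate 2 and 23.2% in Col-0 replicate 2. Without prp4k3 replicate 2 the prp4k3 means were 37.8% for miR5026 and 35.1% for miR8175.

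Too few reads left most rows outside the test for single miRNAs. The filter kept rows with at least 14 CPM, taken before the trimmed mean factor, in 3 libraries, which 40 of the 151 late-named rows passed, holding 32 distinct count profiles. The other 111 rows were not tested, and 79 of them had some count. Of the 40 tested rows, 13 were higher in prp4k3, 4 were lower and 23 were not called at an adjusted p under 0.05 in edgeR's quasi-likelihood test with Benjamini-Hochberg adjustment over all 215 rows tested, and 18 had an unadjusted p under 0.05. Over all rows tested, 37.2% were called, 18.6% higher and 18.6% lower. The corresponding shares of the 40 late-named rows were 42.5%, 32.5% and 10%. The share called lies near that of all rows. The median log2 difference was 0.17 in the late-named rows tested, 0.05 in the 49 rows tested of those numbered from 400 to below 900, -0.26 in the 126 numbered below 400 and -0.14 over all 215. The split by direction and the medians describe rows that passed the filter and carry no weight beyond that: 7 late-named rows were over the filter in all 3 prp4k3 libraries but not in all 3 Col-0 libraries, a choice that favours higher values in prp4k3, and all 7 were called higher. The reverse held for 5 rows, of which 3 were called lower. Apart from those, 6 rows were called higher and 1 lower. The CPM values of the genotypes did not overlap for 18 of the 40 rows, the 17 called and miR5012, against 56.3% of all rows tested. Without prp4k3 replicate 2, 13 late-named rows were higher and 6 lower of 56 tested, of which 12 and 2 were among the original calls. Over all 243 rows tested in that setting, 52 were higher and 51 lower. Without Col-0 replicate 1, Col-0 replicate 3 or prp4k3 replicate 1 a single late-named row was lower, and 2 were without Col-0 replicate 2, of 41 to 53 tested. Over all rows, 24 to 30 were lower in these settings, of 219 to 237 tested. Late-named rows called in either direction fell to 11 of 42 tested without Col-0 replicate 3, where 58 of all 222 rows tested were called.

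**Figure D2:**
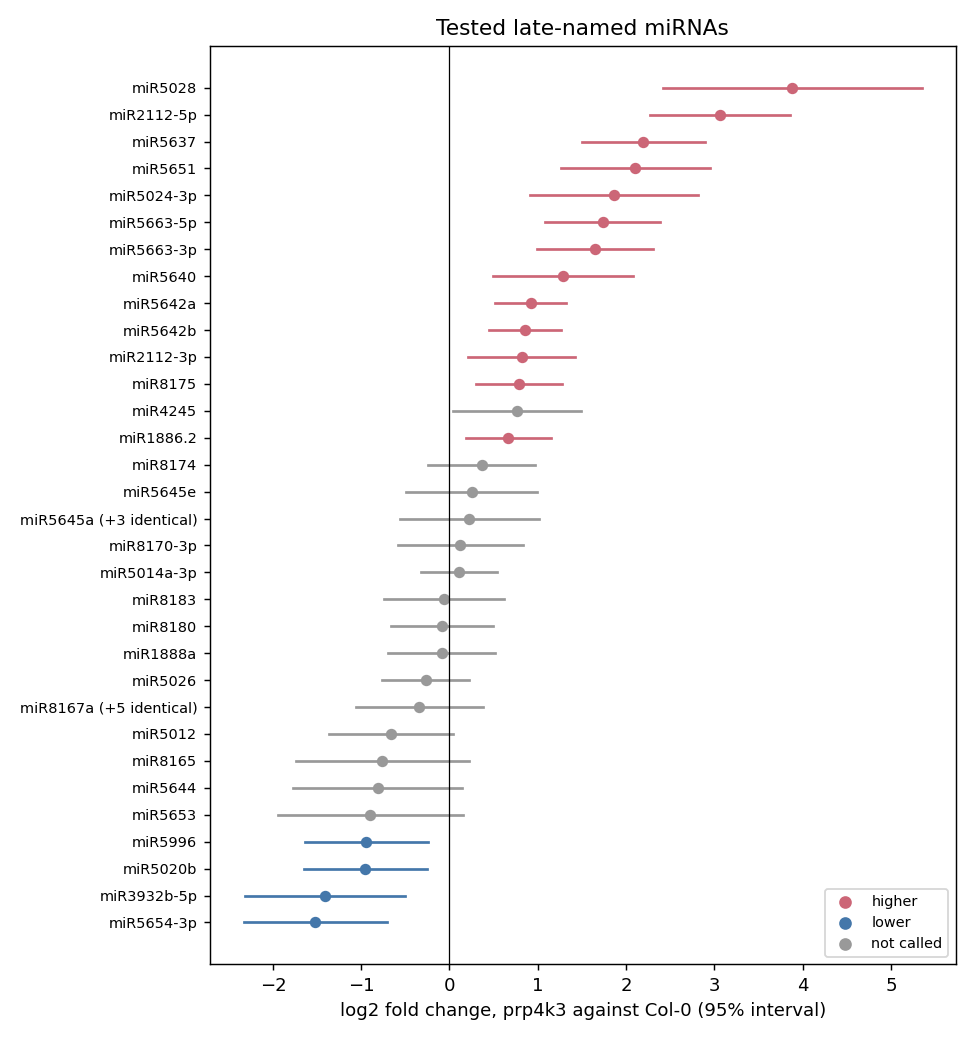
Each point is the log2 difference between prp4k3 and Col-0 of one of the 32 distinct count profiles among the tested late-named rows, with its 95% interval from edgeR, coloured by whether it was called; rows with identical counts share a line. The called values run from 0.67 to 3.88 among the 13 higher rows and from -1.52 to -0.94 among the 4 lower rows.

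The 13 rows that rose came from 11 hairpins, since both arms of MIR2112 and of MIR5663 were among them. miR5028, from chromosome 4, differed most, and it was close to absent from Col-0. It had 0.882, 0 and 3.83 CPM in Col-0 (1, 0 and 4 counts) and 40.6, 19.2 and 23.0 CPM in prp4k3 (16, 10 and 8 counts). Every prp4k3 library lay well above every Col-0 library. It rose by 3.88 ± 0.65 (SE, log2, 95% interval 2.41 to 5.35; edgeR, adjusted p = 0.00124), and the estimate was 5.27 without Col-0 replicate 3, the Col-0 library with 4 of its 5 Col-0 counts. miR2112-5p, from chromosome 1, had 10.6, 8.87 and 8.62 CPM in Col-0 and 53.2, 114 and 68.9 CPM in prp4k3. Its Col-0 values were close together, and prp4k3 replicate 2 held the highest value. It rose by 3.06 ± 0.36 (SE, log2; edgeR, adjusted p = 0.000462), and by 2.69 without prp4k3 replicate 2. The opposite arm, miR2112-3p, was at 31.8, 32.9 and 28.7 CPM in Col-0 and 65.9, 59.7 and 37.3 CPM in prp4k3. Its groups did not overlap, but prp4k3 replicate 3 came close to Col-0. It rose by 0.82 ± 0.27 (SE, log2; edgeR, adjusted p = 0.0372), and the call was lost without any single Col-0 library and without prp4k3 replicate 1 or 2, where the adjusted p was 0.0616 to 0.113.

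miR5637, from chromosome 2, and miR5651, from chromosome 3, each rose more than 4-fold. miR5637 had 27.3, 32.9 and 13.4 CPM in Col-0 and 112, 119 and 103 CPM in prp4k3. The prp4k3 values were tight and far above Col-0, with raw counts of 44, 62 and 36 that exceeded the 31, 26 and 14 of the deeper Col-0 libraries. It rose by 2.20 ± 0.31 (SE, log2; edgeR, adjusted p = 0.000647). miR5651 had 19.4, 12.7 and 10.5 CPM in Col-0 and 93.8, 46.2 and 48.8 CPM in prp4k3. Its groups did not overlap, and prp4k3 replicate 1 was the highest. It rose by 2.11 ± 0.38 (SE, log2; edgeR, adjusted p = 0.00177). miR5024-3p, from chromosome 1, was rarer, with 3.53, 8.87 and 7.66 CPM in Col-0 and 22.8, 19.2 and 31.6 CPM in prp4k3, again without overlap. It rose by 1.86 ± 0.42 (SE, log2; edgeR, adjusted p = 0.00775). Its other arm, miR5024-5p, was seen with 1 count over the Col-0 libraries and 5 over the prp4k3 libraries and was not tested.

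Both arms of MIR5663, on chromosome 1, rose by similar amounts. miR5663-5p had 62.6, 81.1 and 55.6 CPM in Col-0 and 198, 304 and 152 CPM in prp4k3, with prp4k3 replicate 2 the highest. It rose by 1.73 ± 0.29 (SE, log2; edgeR, adjusted p = 0.00118), and by 1.44 without prp4k3 replicate 2. miR5663-3p had 20.3, 11.4 and 21.1 CPM in Col-0 and 53.2, 63.5 and 51.7 CPM in prp4k3. Neither arm overlapped between genotypes. miR5663-3p rose by 1.65 ± 0.29 (SE, log2; edgeR, adjusted p = 0.00176). miR5640, also from chromosome 1, had 11.5, 16.5 and 7.66 CPM in Col-0 and 25.4, 28.9 and 31.6 CPM in prp4k3, without overlap. It rose by 1.29 ± 0.35 (SE, log2; edgeR, adjusted p = 0.0182), and the call was lost without Col-0 replicate 3 (edgeR, adjusted p = 0.0765).

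**Figure D3:**
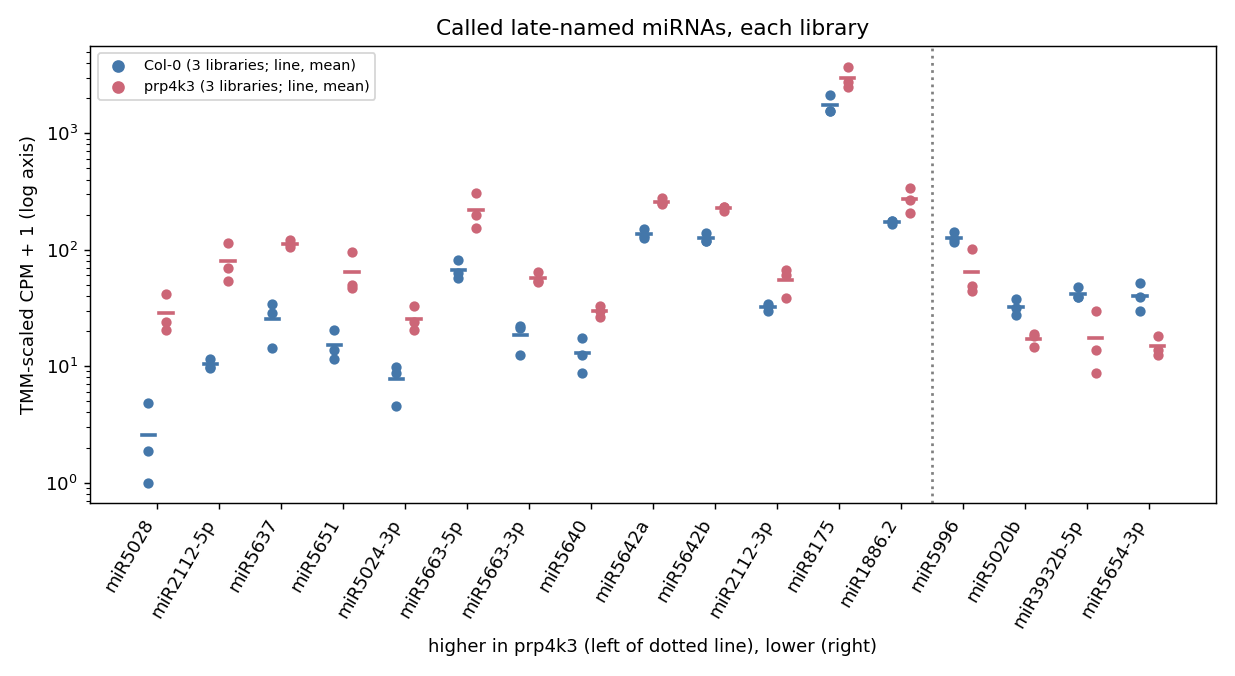
CPM plus 1 on a log axis of each of the 17 called late-named miRNAs in every small RNA library, with Col-0 and prp4k3 side by side, short lines at the means and a dotted line between rows that rose and rows that fell. In each of the 17, the 3 libraries of one genotype lie apart from the 3 of the other.

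The remaining rows that rose were among the more abundant late-named miRNAs and moved less. miR5642a, from chromosome 3, had 149, 125 and 131 CPM in Col-0 and 243, 275 and 250 CPM in prp4k3. miR5642b, from chromosome 2, had 139, 118 and 117 CPM in Col-0 and 216, 231 and 230 CPM in prp4k3. The libraries of each genotype lay close together and the genotypes far apart, and the counts of these 2 rows were nearly the same in every library, so they may share reads and are not independent. miR5642a rose by 0.92 ± 0.18 (SE, log2; edgeR, adjusted p = 0.00307) and miR5642b by 0.86 ± 0.18 (SE, log2; edgeR, adjusted p = 0.00518). miR1886.2, from chromosome 2, had 174, 174 and 165 CPM in Col-0 and 205, 339 and 267 CPM in prp4k3. The Col-0 values were tight and the prp4k3 values spread, with replicate 2 the highest. It rose by 0.67 ± 0.21 (SE, log2; edgeR, adjusted p = 0.0327) and by 0.49 without prp4k3 replicate 2 (edgeR, adjusted p = 0.0404), and the call was lost without any single Col-0 library, where the adjusted p was 0.0710 to 0.0959. By mean CPM over the 6 libraries, the order of the 6 most abundant late-named miRNAs was miR5026, miR8175, miR1886.2, miR5642a, miR5642b and miR5663-5p, at 4507, 2368, 221, 196, 175 and 142 CPM. This order pools the genotypes and is not fixed. The levels of miR1886.2, miR5642a and miR5642b overlapped between libraries, and in prp4k3 replicate 1 miR8175, at 3720 CPM, was above miR5026, at 3590 CPM. In Col-0 alone miR5996 and miR5014a-3p, at mean levels of 126 and 113 CPM, were above miR5663-5p, at 66.4 CPM.

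Only 4 rows fell, all from low or moderate levels. miR5654-3p, from chromosome 1, had 50.3, 38.0 and 28.7 CPM in Col-0 and 12.7, 11.5 and 17.2 CPM in prp4k3. All prp4k3 libraries were below all Col-0 libraries, at 5, 6 and 6 counts. It fell by 1.52 ± 0.36 (SE) on the log2 scale (edgeR, adjusted p = 0.00828), and the call was lost without prp4k3 replicate 1 (edgeR, adjusted p = 0.0738). Its other arm, miR5654-5p, summed to 15 counts over Col-0 and 3 over prp4k3 and was not tested. miR3932b-5p, from chromosome 4, had 37.9, 38.0 and 46.9 CPM in Col-0 and 12.7, 7.70 and 28.7 CPM in prp4k3, and prp4k3 replicate 3 lay nearest to Col-0. It fell by 1.41 ± 0.40 (SE) on the log2 scale (edgeR, adjusted p = 0.0213), and the call was lost without prp4k3 replicate 1 or 2 or Col-0 replicate 1 or 3, where the adjusted p was 0.0503 to 0.137. Its other arm, miR3932b-3p, had the same counts as miR3932a in every library, 44 in Col-0 and 7 in prp4k3, and was not tested.

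miR5996, from chromosome 4, had 139, 115 and 124 CPM in Col-0 and 48.2, 100.1 and 43.1 CPM in prp4k3. The prp4k3 replicate 2 value lay just below the lowest Col-0 value and the other prp4k3 values far below it. miR5996 fell by 0.94 ± 0.31 (SE) on the log2 scale (edgeR, adjusted p = 0.0369) and by 1.44 without prp4k3 replicate 2 (edgeR, adjusted p = 9.36e-05). Leaving out any of the other 5 libraries ended that call, with log2 differences of -0.45 without prp4k3 replicate 1 and -0.47 without prp4k3 replicate 3 and an adjusted p of up to 0.413. The call also ended with relative log expression or upper-quartile scaling, DESeq2, no filter, a filter of 10 CPM and identical rows counted once, where the adjusted p was 0.0663 to 0.126, so it was kept in 5 of 16 alternative settings. miR5020b, from chromosome 4, had 26.5, 36.7 and 30.7 CPM in Col-0 and 17.7, 13.5 and 17.2 CPM in prp4k3, without overlap. It fell by 0.95 ± 0.31 (SE) on the log2 scale (edgeR, adjusted p = 0.0355), and leaving out any 1 library ended the call, with an adjusted p of 0.0612 to 0.209. It was kept in 4 of 16 alternative settings.

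Of the 17 called rows, 9 kept their call under each of the 16 alternative settings, and all 9 were among the rows that rose: miR2112-5p, miR5024-3p, miR5028, miR5637, miR5642a, miR5642b, miR5651, miR5663-3p and miR5663-5p. Of these, miR2112-5p, miR5024-3p, miR5028, miR5637, miR5651 and miR5663-3p were over the filter in all 3 prp4k3 but not all 3 Col-0 libraries. That choice favours higher values in prp4k3, so the shared direction of the kept rows carries no weight. The authors' deposited table calls 14 late-named rows higher and 8 lower at the same threshold, of 119 with a value. Over all 367 rows with a value it calls 45 higher and 36 lower. It rests on the same 6 libraries, so shared calls are not independent support. In that table and here, 11 rows were higher in both and 3 lower in both. Rows higher in the authors' deposited table but not here were miR1886.3, miR5632-5p and miR8121, and rows higher here but not there were miR2112-3p and miR8175. Rows lower in the authors' deposited table but not here were miR3932a, miR3932b-3p, miR5629, miR5634 and miR5997, none of which passed the filter here. miR5996 was lower here but not in the authors' deposited table, where its adjusted p was 0.071.

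Among the 23 tested rows that were not called, log2 differences ran from -0.90 to 0.77. They were -0.90 for miR5653, -0.81 for miR5644, -0.76 for miR8165 and -0.67 for miR5012, each with 12 to 21 counts in all prp4k3 libraries together. The 6 identical rows miR8167a to miR8167f were at -0.34, miR1888a and miR8180 at -0.09, and miR8183 at -0.06. miR5014a-3p was at 0.11, miR8170-3p at 0.12, the identical rows miR5645a, miR5645b, miR5645d and miR5645f at 0.23, miR5645e at 0.25 and miR8174 at 0.37. miR4245 was at 0.77 ± 0.32 (SE; edgeR, adjusted p = 0.0982), with overlapping groups, and was called higher in 3 of 16 alternative settings: upper-quartile scaling, without Col-0 replicate 2 and without prp4k3 replicate 1 (edgeR, adjusted p over all settings 0.0304 to 0.220). A missed threshold does not show that these miRNAs were equal in the genotypes, and the interval for miR5653, for example, ran from -1.95 to 0.15.

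Some rows too rare for the filter still differed in their reads. With no filter on low counts, 80 of the 367 rows with a count (21.8%) were called. Of the 119 late-named rows with a count, 18 were called, and 3 of these lay outside the filter. miR5634 was counted 16, 17 and 11 times in Col-0 and 0, 1 and 0 times in prp4k3. Nearly all of its reads thus came from Col-0. Its summed counts, scaled as for CPM over the 3 libraries together, were 18.7 times as high there, with a counting interval of 3.19 to 756 (edgeR without the filter, adjusted p = 0.00331, range over the 6 settings that tested it 0.00331 to 0.0343). The ratios below were formed in the same way. miR1886.3 summed to 17 counts over Col-0 and 35 over prp4k3 in spite of the lower depth of prp4k3, a ratio of 4.84 with a counting interval of 2.64 to 9.21 (edgeR without the filter, adjusted p = 0.00243, range over 9 settings 0.00163 to 0.0380). miR1886.3 thus lay in the same direction as miR1886.2 from the same hairpin, and miR1886.1 had 26 and 23 counts and was not called (edgeR without the filter, adjusted p = 0.0858). miR5632-5p summed to 2 counts over Col-0 and 9 over prp4k3, giving a ratio of 10.6 with a counting interval of 2.19 to 100.6 (edgeR without the filter, adjusted p = 0.0216; 0.0441 under the other setting that tested it). These intervals are exact 95% intervals for counting error only and do not hold the spread between libraries.

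The arm shares of a hairpin do not depend on the scaling of the libraries. They could be followed for the 3 hairpins with at least 10 reads in each library. In MIR2112 the 5p arm held 25% (95% exact Clopper-Pearson interval 13.6 to 39.6), 21.2% (8.98 to 38.9) and 23.1% (11.1 to 39.3) of the arm reads in Col-0. In prp4k3 it held 44.7% (30.2 to 59.9), 65.6% (54.8 to 75.3) and 64.9% (47.5 to 79.8). The 3p arm was therefore the more abundant arm in every Col-0 library, and the 5p arm in prp4k3 replicates 2 and 3. The mean 5p share was 23.1% ± 1.89 (SD, n = 3) in Col-0 and 58.4% ± 11.9 (SD, n = 3) in prp4k3 (exact two-sided permutation test, p = 0.1, the smallest possible, adjusted over the 3 hairpins 0.3). In MIR5663 the 5p share was 78.6% ± 8.03 (SD, n = 3) and 78.7% ± 4.04 (SD, n = 3), with overlap (exact two-sided permutation test, p = 1, adjusted 1). In MIR5014a it was 2.31% ± 0.117 (SD, n = 3) and 1.94% ± 0.307 (SD, n = 3), with 1 to 3 reads of the 5p arm per library (exact two-sided permutation test, p = 0.2, adjusted 0.3).

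**Figure D4:**
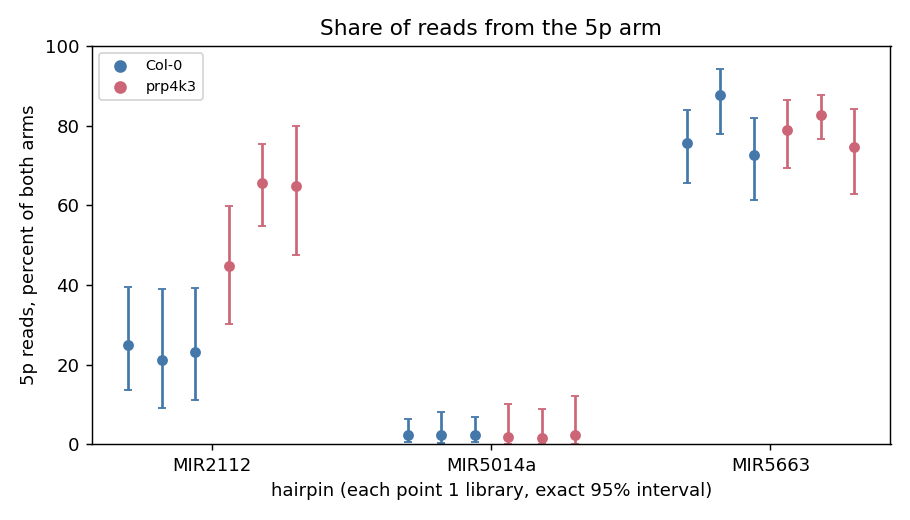
Share of the 5p arm among the arm reads of MIR2112, MIR5014a and MIR5663 in percent, 1 point per small RNA library coloured by genotype, with exact 95% binomial intervals. The MIR2112 shares of prp4k3, at 44.7% to 65.6%, lie above those of Col-0, at 21.2% to 25%, while the MIR5663 shares of the genotypes overlap.

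Late-named hairpins often overlapped other genes in position, with strand not considered. By the TAIR10.1 gene table, 68 of the 132 late-named hairpins (51.5%) overlapped another annotated gene, 52 of them a protein-coding gene. Of the hairpins numbered from 400 to below 900, 45 of 96 (46.9%) overlapped a gene, and of those numbered below 400, 10 of 97 (10.3%) did. Of the 17 called rows, 14 came from a hairpin that overlapped a gene, and miR5028, miR5020b and miR8175 did not. The overlapped genes comprised 11 tested in RNA-seq, where 65.8% of all 18609 features tested were called, 33.9% higher and 31.9% lower in prp4k3. Of the 11, 2 were higher, 5 lower and 4 not called, a share of calls near that of all features. RNA-seq directions depend on scaling: the median log2 difference of all features was 0.02 with trimmed mean scaling and 0.86 with total-count scaling, under which 12490 features were higher and 1825 lower in place of 6310 and 5943. The log2 difference of the gene had the sign of the miRNA for 7 of the 11 genes with trimmed mean scaling and for 10 with total-count scaling. Reads of the gene and of the hairpin transcript cannot be told apart in these counts.

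CALS1, a callose synthase gene that overlaps MIR5640, differed most. It had 9.52, 9.23 and 8.74 CPM in Col-0 and 61.3, 65.7 and 60.2 CPM in prp4k3. All prp4k3 libraries were far above Col-0, and CALS1 rose by 2.77 ± 0.11 (SE, log2; edgeR, adjusted p = 3.4e-07), beside the 1.29 of miR5640. SPPL4, a signal peptide peptidase-like gene that overlaps MIR2112, rose by 0.35 ± 0.12 (SE, log2; edgeR, adjusted p = 0.0259), a call lost without any single library except Col-0 replicate 3, beside the 3.06 and 0.82 of the arms of miR2112. With total-count scaling CALS1 was at 3.61 and SPPL4 at 1.19 (edgeR, adjusted p = 4.21e-08 and 8.6e-06). That scaling had 67.1% of all features higher. AT4G13575, which overlaps the hairpin of miR3932b, fell by 1.79 ± 0.19 (SE, log2; edgeR, adjusted p = 3.52e-05), and by 0.94 with total-count scaling. AT1G32583, which overlaps the hairpin of miR5654 and has MIR400 as a near neighbour of that hairpin, fell by 1.33 ± 0.22 (SE, log2; edgeR, adjusted p = 0.000472), and was at -0.49 with total-count scaling (edgeR, adjusted p = 0.0647). At both loci the gene and the miRNA had negative log2 differences under either RNA-seq scaling.

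Genes lay opposite to the miRNA at other loci with trimmed mean scaling, and each of these turned sign with total-count scaling. RDUF1, a ubiquitin ligase gene that overlaps MIR5651, fell by 0.63 ± 0.15 (SE, log2; edgeR, adjusted p = 0.00377) and was at 0.22 with total-count scaling. AAP5, an amino acid permease gene that overlaps MIR5024, fell by 0.63 ± 0.24 (SE, log2; edgeR, adjusted p = 0.0426), with overlapping groups, and was at 0.22 with total-count scaling. AT1G50440, which overlaps MIR5663, fell by 0.51 ± 0.18 (SE, log2; edgeR, adjusted p = 0.0283), also with overlapping groups, and was at 0.33. The AAP5 and AT1G50440 calls were each lost without 1 of 3 single libraries, Col-0 replicate 3 and prp4k3 replicate 1 among them for both. AT2G37160 at MIR1886 was at 0.34, AT2G28620 at MIR5637 at 0.12, AT2G01008 at MIR5642b at -0.10 and UNE15 at MIR5996 at -0.49, none of them called. With total-count scaling AT2G37160 was at 1.18, AT2G28620 at 0.96 and AT2G01008 at 0.75, each called higher (edgeR, adjusted p up to 0.00202). UNE15 was then at 0.35, not called, and 67.1% of all features were higher. AT2G37160 was also called higher without prp4k3 replicate 2 (edgeR, adjusted p = 0.0148).

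**Figure D5:**
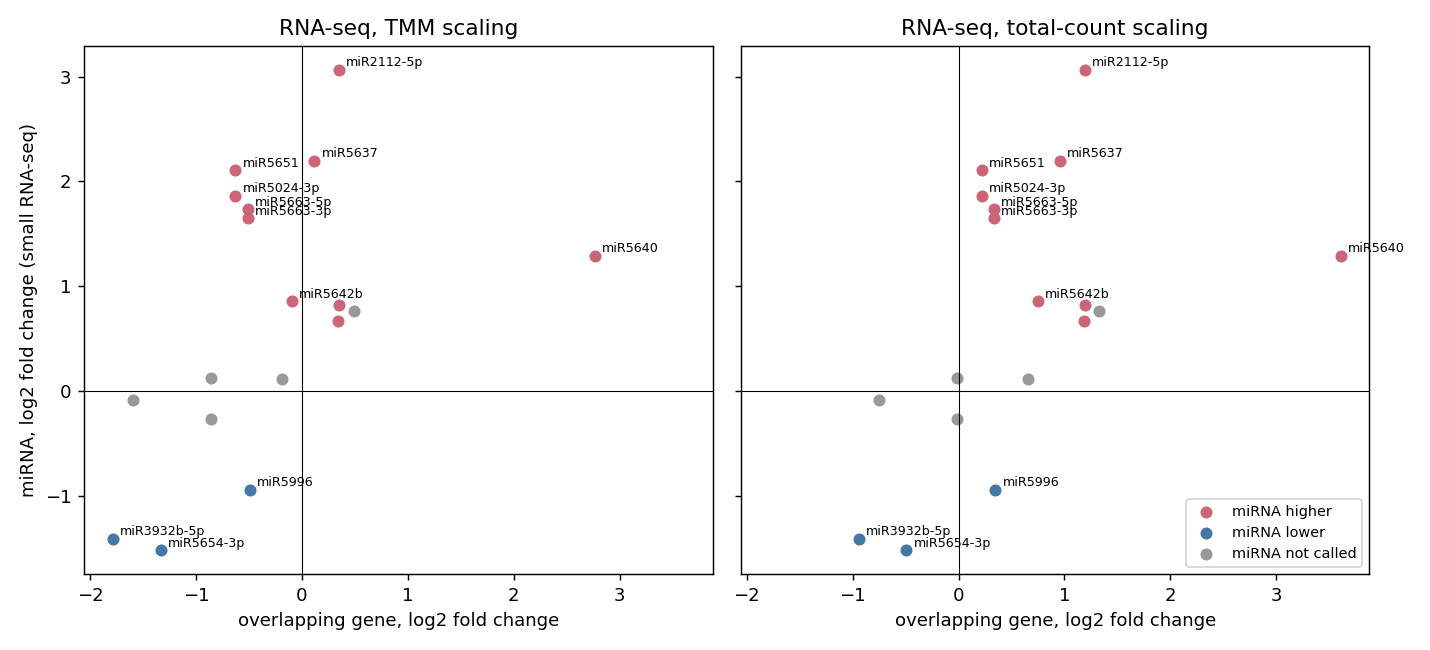
Log2 difference between prp4k3 and Col-0 of the gene that a hairpin overlaps (horizontal) against that of the tested late-named miRNA (vertical), with trimmed mean (TMM) scaling of the RNA-seq libraries on the left and total-count scaling on the right; colours give the call of the miRNA. Total-count scaling shifts the genes to the right, so that 10 rather than 7 of the 11 genes at called miRNAs have the sign of the miRNA.

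Hairpin genes were listed in RNA-seq for miR2111 alone, and its F-box mRNA was the only target looked up. Of the late-named hairpin genes, 2 are listed in the RNA-seq table, MIR2111a with 0 counts in all 6 libraries and MIR2111b with 1 count in Col-0 replicate 1, so neither was tested. AT3G27150, the F-box mRNA that miR2111 cleaves, was counted 2, 7 and 0 times in Col-0 and 3, 3 and 2 times in prp4k3, at or near the limit of detection in both, and was not tested. The mature rows miR2111a-5p and miR2111b-5p held the same counts in every library, each with 1 over Col-0 and 3 over prp4k3. miR2111b-3p summed to 13 counts over Col-0 and 14 over prp4k3 and was not tested.

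Of 13 genes that make small RNAs, all tested, 9 (69.2%) were higher in prp4k3, 0 were lower and 4 were not called, against 65.8% of all features called and 33.9% higher. The share called is near that of all features. Their median log2 difference was 0.83 against 0.02 over all features. With total-count scaling all 13 were higher, as were 67.1% of all features. Of the genes for miRNA production, DCL1, the Dicer that cuts miRNA hairpins, and HYL1, its double-stranded RNA binding partner, both rose by 0.83, HEN1, which methylates miRNAs, by 1.53, and HST, which has a part in miRNA export, by 1.02. SE, the gene of Serrate, rose by 0.34 (edgeR, adjusted p = 0.0233), a call lost without Col-0 replicate 1 or prp4k3 replicate 1 or 3. Of the genes of small interfering RNA pathways, DCL4 rose by 0.87, its partner DRB4 by 1.13, RDR2 by 1.18 and NRPD1, the largest subunit of RNA polymerase IV, by 1.60. The other 8 called genes had a lower adjusted p than SE in edgeR's quasi-likelihood test. AGO1, the main miRNA Argonaute, was at -0.04, DCL2 at 0.22, DCL3 at 0.50 and AGO4 at 0.23, none of them called.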

How the data were processed

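The deposited tables hold read counts per named miRNA (small RNA-seq) and per gene, transposable element or other locus (RNA-seq), made by the authors. The submitters' processing notes name HTSeq, edgeR, TopHat2 and SAMtools. Versions, roles, the genome build and the use of strand in counting were not given in the sources used here. The authors' deposited tables also give a log2 fold change and an adjusted p-value per feature, and 12 columns of scaled values that were not used.

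Tests on the raw counts used R 4.3.3 and edgeR 4.0.16 (filterByExpr, trimmed mean (TMM) factors, quasi-likelihood test, genotype as the only term, Benjamini-Hochberg adjustment over the whole table, called under 0.05). CPM values are counts scaled by library total and TMM factor. DESeq2 1.42.0, limma 3.58.1 (voom), other scalings, other filters, identical rows counted once, a replicate block and leaving out each library were alternatives. Shares were compared over libraries with exact permutation tests. RNA-seq totals were 16041754 to 19344157 counts. Intervals for counts cover counting error only. The fits were also run on simulated counts with the same relative spread for every row and library. That run does not show how the fits do on libraries as uneven as these. Hairpins were matched by name to the TAIR10.1 gene table, and overlaps and neighbours were found within that table, whose coordinates are not printed. Overlaps were found by position without regard to strand. Named miRNAs are every called late-named row, the 6 most abundant, the other arm of each, and each other tested row with its log2 difference. Rows in the section on rare miRNAs and the genes overlapping called rows were chosen after their values were seen. The members and gene lists were chosen with earlier results of these data known. The 3 se-2 samples were not analysed here.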

Additional observations from a re-analysis of the deposited data

How the results depend on the processing

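The tally of 508 values covers 38 selected miRNAs and genes. Of these values, 436 kept their direction and side of the threshold, 59 lost and 4 gained a call, and 9 reversed. The 9 are listed below. Outside the 38, the log2 differences of PRP4KA, PRP4KB, SHR and AGO1 also changed sign with total-count scaling. They became 0.16, 0.43, 0.24 and 0.80. The count of late-named rows called was 11 to 19 without 1 library (13 to 18 under other settings), of those higher 10 to 16 and of those lower 1 to 6, against 17, 13 and 4; with total-count or upper-quartile scaling 2 were lower. Over all miRNAs, 58 to 103 were called without 1 library, 28 to 52 higher and 24 to 51 lower, and 25 were lower with total-count scaling. RNA-seq gave 12490 higher and 1825 lower features with total-count scaling, and without 1 library 11042 to 12334 called, 5733 to 6333 higher and 5309 to 6001 lower. The difference in the late-named share was 0.0638 to 0.193 percentage points without 1 library, 0.144 with identical rows counted once and 0.0379 without the 5 most abundant rows of the table. The processing list had 8 to 9 genes called without 1 library. Reversed values were 0.13 and 0.12 for miR5026 without prp4k3 replicate 1 or 3 (range without 1 library -0.49 to 0.13); 0.22 for AAP5, 0.22 for RDUF1, 0.33 for AT1G50440, 0.35 for UNE15 and 0.75 for AT2G01008 with total-count scaling; 0.021 for AT2G01008 without Col-0 replicate 3 (range -0.27 to 0.021); and -0.015 for AT2G28620 without prp4k3 replicate 2 (range -0.015 to 0.21). The cause was not tested. The median log2 difference of all miRNA rows was -0.14 with trimmed mean factors, -0.06 with total-count scaling and -0.03 with relative log expression or upper-quartile factors, so called directions are relative to these. The repeat numbers in the labels are not stated to mark a shared plant or day, and deviations of same-numbered libraries correlated at -0.24, -0.02 and -0.08 (small RNA) and -0.05, 0.05 and -0.05 (RNA-seq). With a replicate block 69 miRNA rows were called, of the late-named 11 higher and 3 lower, and miR1886.2, miR2112-3p and miR5020b were not called. Depth limits the rare rows: 111 late-named rows were below the filter, and 119 of the 151 could be tested without it, while 32 had no count.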

Other observations

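The hairpin of miR5026, the most abundant late-named miRNA, overlaps the noncoding RNA gene AT4G13495, as do the hairpins of miR850 and miR863. AT4G13495 had 93.2 ± 26.8 CPM in Col-0 and 51.3 ± 14.1 CPM in prp4k3 (SD, n = 3 each), without overlap. It fell by 0.86 ± 0.24 (SE, log2; edgeR, adjusted p = 0.00929), and its log2 difference was -0.02 with total-count scaling. None of the miRNAs of these overlapping hairpins was called. Beside the -0.27 of miR5026, the log2 difference was 0.16 ± 0.23 (SE) for miR850, 0.26 ± 0.27 (SE) for miR863-3p and -0.05 ± 0.22 (SE) for miR863-5p. Whether these miRNAs are cut from the transcript of AT4G13495 was not tested.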
